A study of Mus musculus with 24 samples.

Results

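Dawn was set against dusk in the livers of calorie-restricted (CR) mice, by comparing the 4 libraries taken around lights on with the 4 taken around lights off. The dawn libraries are those of zeitgeber time (ZT, hours after lights on) 22 and 2, and the dusk libraries those of ZT 10 and 14, with 2 libraries at each time point. These 8 are part of 24 libraries in all. The others are CR libraries of ZT 6 and 18 and libraries of mice that ate ad libitum (AL) at the same 6 time points, of which the 8 at ZT 22, 2, 10 and 14 served as the comparison. All mice were C57BL/6 and 5 months old. The CR mice had received 30% fewer calories for 3 months, from 2 months of age. Each library holds poly(A) RNA that came down with polysomes, that is, transcripts carrying several ribosomes, so a difference can lie in the amount of a transcript or in its loading. Total RNA was not analysed here, and no source used here gives the hours at which CR mice received food. The labels do not say that the libraries of a group come from separate animals, and p-values measure the spread between libraries, which may be partly technical. All 52636 genes in the files entered, and 15490 of them passed a filter on low counts and were tested.

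The circadian clock of a liver cell is a loop of transcription factors. The activators BMAL1 (gene Arntl), CLOCK and NPAS2 bind the DNA motif called the E-box and switch on the genes Per, Cry and Ciart and those of the nuclear receptors REV-ERBα and β (Nr1d1 and Nr1d2). PER and CRY proteins then silence the activators, and the REV-ERB proteins silence Arntl through a motif called RORE, at which ROR receptors such as the product of Rora activate. Output factors of the PAR bZIP family (Dbp, Tef, Hlf) and their rival Nfil3 act through the D-box. In liver this loop is tied to feeding, and many genes of glucose, lipid, haem and drug metabolism follow it.

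Upstream sequences of 4 genes that were higher at dusk are shown because they hold these motifs. They come from the RefSeq promoter table (build GRCm38.p6) and are given 5′ to 3′ on the gene's strand, up to the first annotated exon, with motif letters in capitals. Ciart, Per1 and Per3 are clock genes, and Coq10b encodes a mitochondrial coenzyme Q-binding protein and is among the genes of largest change at dusk. Ciart (chr3:95882252-95882478, minus strand) holds 3 copies of the E-box CACGTG, which start 116, 58 and 44 bases before the transcription start.
Ciart: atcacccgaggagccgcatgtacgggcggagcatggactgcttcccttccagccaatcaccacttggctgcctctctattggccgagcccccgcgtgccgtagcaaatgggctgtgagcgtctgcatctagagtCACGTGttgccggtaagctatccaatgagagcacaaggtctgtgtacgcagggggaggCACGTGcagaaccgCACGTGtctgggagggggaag
Per1 (chr11:69098699-69098947, plus strand) holds 1 E-box, 166 bases before the start.
Per1: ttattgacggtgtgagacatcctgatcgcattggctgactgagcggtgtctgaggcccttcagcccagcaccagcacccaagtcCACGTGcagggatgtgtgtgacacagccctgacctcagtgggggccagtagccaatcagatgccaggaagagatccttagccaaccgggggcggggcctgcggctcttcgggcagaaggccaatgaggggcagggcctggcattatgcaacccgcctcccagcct
Per3 (chr4:151044666-151044915, minus strand) holds the D-box at 205 and at 158 bases before the start.
Per3: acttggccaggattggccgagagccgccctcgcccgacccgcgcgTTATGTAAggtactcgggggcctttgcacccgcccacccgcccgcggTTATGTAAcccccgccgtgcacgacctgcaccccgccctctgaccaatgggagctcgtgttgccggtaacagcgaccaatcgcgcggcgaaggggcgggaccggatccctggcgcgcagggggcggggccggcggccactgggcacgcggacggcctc
Coq10b (chr1:55052520-55052769, plus strand) holds an E-box at 78 bases and, on the opposite strand, a D-box at 162 bases before the start.
Coq10b: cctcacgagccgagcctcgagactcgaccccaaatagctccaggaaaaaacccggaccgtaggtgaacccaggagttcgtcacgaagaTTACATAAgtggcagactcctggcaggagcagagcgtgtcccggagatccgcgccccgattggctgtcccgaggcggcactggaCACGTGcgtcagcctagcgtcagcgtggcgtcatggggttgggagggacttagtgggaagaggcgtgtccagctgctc
The search covered windows of 300 bases, 250 before and 50 after the start, on both strands, with CACGTG as the E-box, TTATGTAA or TTACGTAA as the D-box, and TAGGTCA or TGGGTCA as the RORE core. None of these motifs contains another. Over all 32851 windows of the table, 7.15% held the E-box, 1.06% the D-box and 6.45% the RORE core. Of the 19 clock genes, 16 had a window. An E-box was found in 5 of them (Ciart, Per1, Tef, Cry1 and Bhlhe41), a D-box in 1 (Per3) and a RORE core in 2 (Arntl, 31 bases after the start, and Nfil3, 12 bases before it). Among the genes of largest change, windows were found for 7 higher at dawn, of which A1bg held an E-box, and for 8 higher at dusk, of which Coq10b held an E-box and a D-box. These counts are per gene, with a match in any of its windows counted, while the shares over the table are per window. Some genes had several windows, so counts and shares are not directly comparable. A match is a description of the motif letters, and no match says only that they are not in the window.

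The 8 libraries differed in quality. Counted reads ranged from 18.6 to 51.0 M per library. Features that collect ribosomal RNA took 2.94% and 43.8% of them at ZT22, 62.1% and 44.7% at ZT2, 2.42% and 52.1% at ZT10, and 28.9% and 18.8% at ZT14. The log2 ratio of ribosomal RNA reads to other reads was 0.91 higher at dawn, a difference within the spread between libraries (exact permutation test over the 8 libraries, two-sided p = 0.571, smallest possible 0.0286). CR ZT22 1 and CR ZT10 1, with the lowest shares, form a pair of 1 dawn and 1 dusk library. Within that pair, 192 of the 198 genes called higher at dawn and 211 of the 220 called higher at dusk had the same sign as in the whole comparison. Both libraries were among the 8 used to call these genes, which raises that agreement, and the share over all tested genes was not taken. The ZT10 libraries were the least alike, with Spearman's rho across genes of 0.919 between them, against 0.968 at ZT22 and 0.972 at both ZT2 and ZT14. This value does not say which of the ZT10 libraries stood apart. The 9 hepatocyte markers found in the files had a summed level of 60830 to 82540 CPM at dawn and 76790 to 143100 CPM at dusk, where CPM stands for counts-per-million after scaling for library size and composition.

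Of the 15490 genes tested, 418 (2.7%) differed between dawn and dusk in CR at an adjusted p under 0.05 by edgeR (quasi-likelihood test, Benjamini-Hochberg). Of these, 198 (1.28%) were higher at dawn, with a median of 1.49 log2 units, and 220 (1.42%) were higher at dusk, with a median of -1.51. Changes are given throughout as dawn minus dusk, with the standard error (SE), and a gene past this threshold is described as called. The median over all tested genes was -0.02. At least a 2-fold change was reached by 375 of the 418, 178 at dawn and 197 at dusk. In 299 of them the 4 dawn and the 4 dusk libraries did not overlap, which was so in 1000 (6.46%) of all tested genes. Of the 418, 401 (95.9%) had the same sign in all 4 differences between a dawn and a dusk time point, against 33.7% of tested genes, and choosing genes by the mean of these differences raises that share.

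The count of calls rested on single libraries. It was 1466 without CR ZT10 2, of which 388 were among the 418, and 352 without CR ZT10 1, of which 269 were. With 1 of the other 6 left out it lay between 176 (without CR ZT2 1) and 247 (without CR ZT2 2). In all 8 of these fits 128 of the 418 genes were called, 63 higher at dawn and 65 higher at dusk, and 218 were called in fewer than 5 of them. Without both libraries of low ribosomal RNA share, 181 genes were called, 169 of them among the 418.

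**Figure D1:**
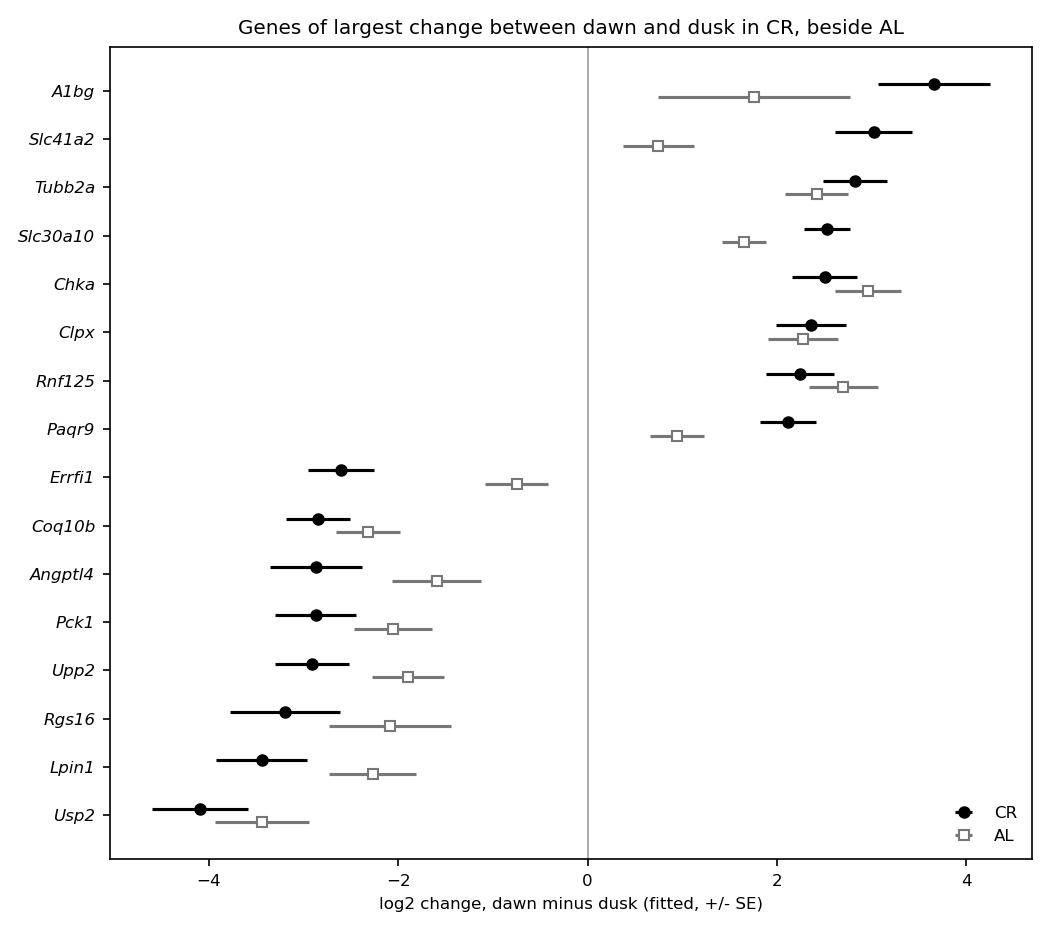
Fitted log2 change, dawn minus dusk, of the 8 genes of largest change in each direction in CR among those whose geometric mean reached 10 CPM and whose 4 time-point differences had 1 sign (black circles, bars ± SE) beside the same difference in AL (open grey squares, bars ± SE). All 16 genes lie on the same side of zero in both diets, with Errfi1 at -2.61 in CR and -0.75 in AL.

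The clock activators that were called stood high at dawn. Arntl, which encodes BMAL1 (ENSMUSG00000055116.8, chromosome 7, 113207465 to 113314126), read 8.07 and 9.91 CPM at ZT22, 12.2 and 15.0 at ZT2, 0.0266 and 0.458 at ZT10, and 2.54 and 1.40 at ZT14. Every dawn library was above every dusk library, and the lowest values were those of ZT10. Its change was 4.20 ± 0.51 log2 units (adjusted p = 6.36e-05 by edgeR (quasi-likelihood test, Benjamini-Hochberg)). Npas2, a partner that can stand in for CLOCK, read between 3.81 and 5.28 CPM at dawn and 0.159 and 0.167 at ZT10, and had no count in either library of ZT14. With ZT14 set to a floor of 3 counts over its 2 libraries, Npas2 was at least 5.69 log2 units higher at dawn, on 706 counts at dawn and 16 at dusk. Clock itself moved less. It read 29.4 and 33.6 CPM at ZT22, 29.2 and 25.1 at ZT2, 10.8 and 16.4 at ZT10, and 15.7 and 9.63 at ZT14, a change of 1.16 ± 0.23 (adjusted p = 0.00646 by the same edgeR test, and 0.0625 without CR ZT14 2). Rora, an activator at RORE motifs, had a change of 0.12 ± 0.24 and was not called. Thus the 3 E-box activators were higher at dawn, as were 1.28% of all tested genes.

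The repressors of the loop that were called stood high at dusk. Ciart, a repressor of CLOCK and BMAL1 (ENSMUSG00000038550.10, chromosome 3, 95878503 to 95882251), whose upstream E-boxes are shown above, read 0.389 and 0.209 CPM at ZT22, 0.318 and 0.387 at ZT2, 17.3 and 9.42 at ZT10, and 5.01 and 4.52 at ZT14. Its windows did not overlap and ZT10 was the highest time point, with a change of -4.56 ± 0.49 log2 units. Per1 (ENSMUSG00000020893.17, chromosome 11, 69095217 to 69109960) read 2.36 and 4.05 CPM at ZT22, 6.04 and 0.774 at ZT2, 30.4 and 31.2 at ZT10, and 19.0 and 24.4 at ZT14, a change of -3.004 ± 0.48. Per2 lay between 1.35 and 2.63 CPM at dawn and between 7.90 and 16.7 at dusk, a change of -2.48 ± 0.39. Adjusted p-values were 1.65e-05 for Ciart, 0.000917 for Per1 and 0.000697 for Per2 by edgeR (quasi-likelihood test, Benjamini-Hochberg), and all 3 were called with any 1 of the 8 libraries left out.

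Per3 (ENSMUSG00000028957.12, chromosome 4, 151003652 to 151044665) differed within dusk. It lay between 0.668 and 4.05 CPM at dawn and read 25.4 and 27.2 CPM at ZT10 but 3.71 and 3.40 at ZT14. The ZT14 values lie inside the dawn range, so the windows overlapped. Its change of -2.12 ± 0.56 had an adjusted p of 0.0435 by edgeR (quasi-likelihood test, Benjamini-Hochberg), and was still called without CR ZT2 1 or CR ZT10 2 but not without any of the other 6 libraries (adjusted p up to 0.176). Cry1, Cry2, Bhlhe40 and Bhlhe41 had changes of 0.72 ± 0.31, -0.76 ± 0.25, -0.86 ± 0.38 and -1.39 ± 1.22 and were not called. The window means of Cry1 hide differences between time points. At dawn Cry1 read 28.2 and 31.2 CPM at ZT22 and 19.1 and 6.19 at ZT2. At dusk it read 4.56 and 7.87 CPM at ZT10 and 23.7 and 20.7 at ZT14. In all, 4 of 8 repressors were higher at dusk and 0 at dawn, with a median of -1.75 over the list, against -0.02 over all tested genes. Of all tested genes, 1.42% were higher at dusk and 1.28% at dawn.

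Of the REV-ERB receptors, Nr1d2 was called and Nr1d1 was not. Nr1d2 read 3.16 and 6.77 CPM at ZT22, 14.7 and 19.8 at ZT2, 49.7 and 71.8 at ZT10, and 34.5 and 25.8 at ZT14. Its dawn and dusk libraries did not overlap, and the change was -2.21 ± 0.28 (adjusted p = 8.73e-05 by edgeR (quasi-likelihood test, Benjamini-Hochberg)). Nr1d1 read 0.818 and 0.698 CPM at ZT22, 11.0 and 11.8 at ZT2, 4.20 and 7.08 at ZT10, and 2.99 and 1.37 at ZT14, so that its dawn time points lay on either side of dusk. Its mean change between the windows was -0.24 ± 0.39, while inside dawn it was 3.90 log2 units higher at ZT2 than at ZT22 (adjusted p = 0.0354 by the same edgeR test, on 20 to 336 counts per library). That call was lost without any 1 of the 4 dawn libraries, without a composition factor and with only the 8 CR libraries fitted. Nr1d1 overlaps Thra in the annotation, and these reads carry no strand.

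The PAR bZIP factors Dbp and Tef also stood high at dusk. Dbp, whose protein activates through the D-box, read 0.241 and 0.628 CPM at ZT22, 0.953 and 1.05 at ZT2, 19.1 and 30.9 at ZT10, and 8.16 and 8.89 at ZT14. That is a change of -4.51 ± 0.60 with no overlap between the windows, and both libraries of ZT10 were above both of ZT14. Tef lay between 17.3 and 34.5 CPM at dawn and between 74.7 and 235 at dusk, a change of -2.10 ± 0.32. Adjusted p-values were 0.000132 for Dbp and 0.000496 for Tef by edgeR (quasi-likelihood test, Benjamini-Hochberg). Dbp overlaps Sphk2 in the annotation, so reads of shared stretches cannot be assigned. Hlf, another family member, had a change of -0.30 ± 0.20 and was not called.

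Nfil3, the repressor at the D-box, was low at ZT10 only. It read 31.5 and 26.4 CPM at ZT22, 49.0 and 28.7 at ZT2, 2.84 and 5.08 at ZT10, and 47.5 and 36.5 at ZT14. Its windows overlapped, and its mean change of 1.38 ± 0.27 had an adjusted p of 0.00559 by edgeR (quasi-likelihood test, Benjamini-Hochberg), which became 0.0532 without CR ZT2 1. Inside dusk it was 3.42 log2 units higher at ZT14 than at ZT10 (adjusted p = 0.000714 by the same edgeR test).

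**Figure D2:**
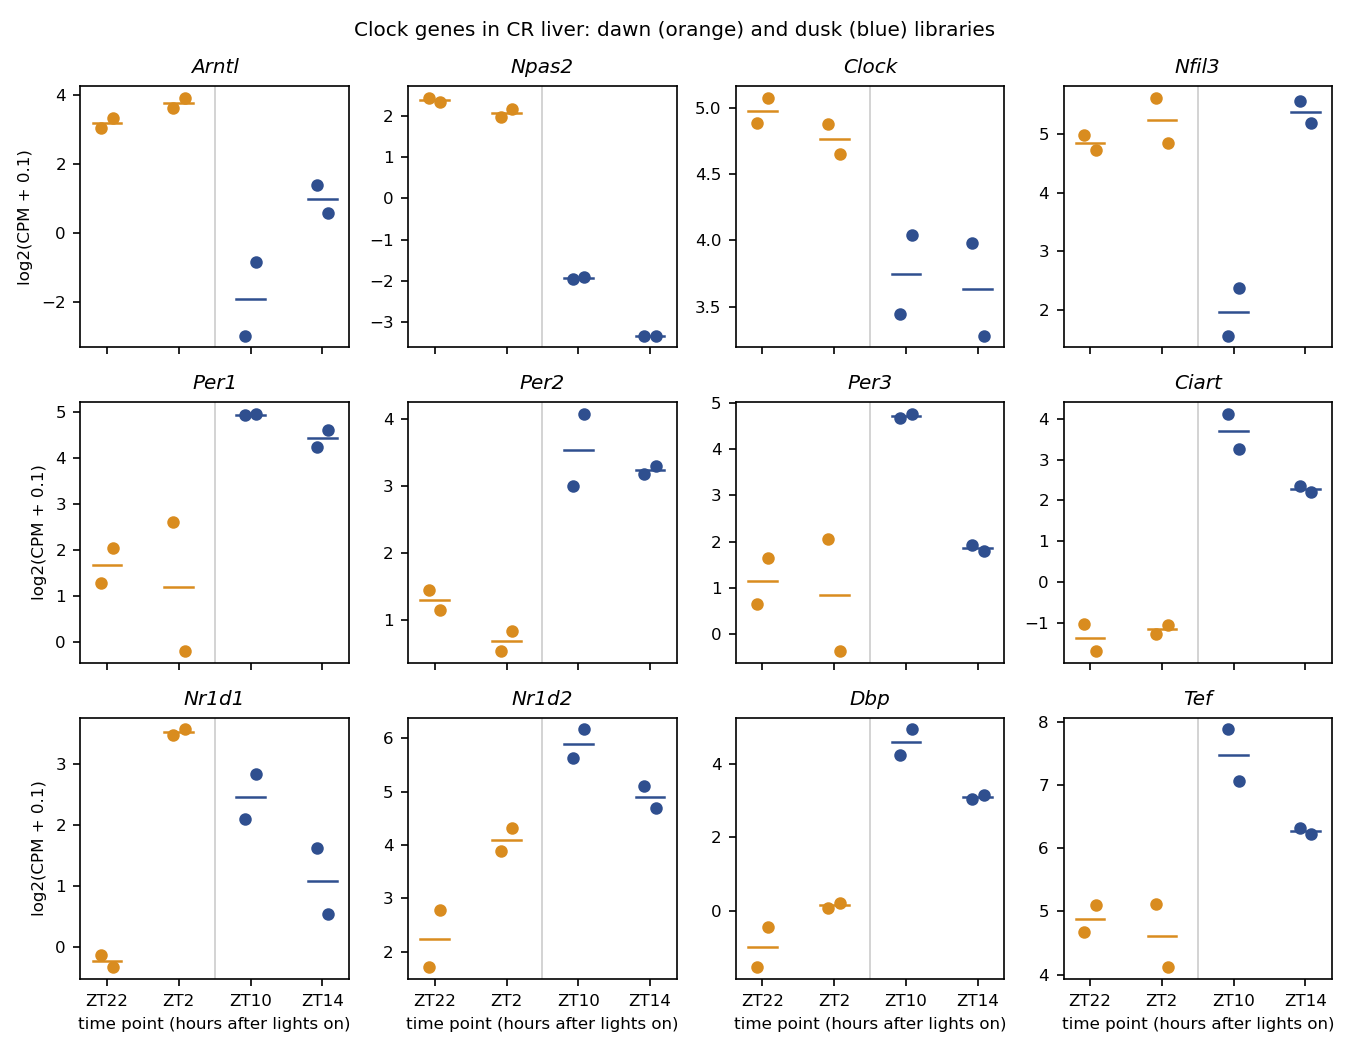
Levels of 12 clock genes as log2(CPM + 0.1) in the 8 CR libraries (points) with the mean of each time point (lines), dawn in orange and dusk in blue. Npas2 and Arntl are high at ZT22 and ZT2, Ciart, Dbp, Per1 and Tef at ZT10 and ZT14, and Nr1d1, Per3 and Nfil3 differ within a window.

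Further clock-controlled genes of liver were called mainly at dusk. Of 14 such genes, 8 were higher at dusk and 1 at dawn, against 1.42% and 1.28% of all tested genes. The median of the 14 was -1.75, and 5 of the 9 called genes were called with any 1 of the 8 libraries left out. Usp2, a deubiquitinating enzyme, read 10.1 and 19.2 CPM at ZT22, 7.70 and 1.16 at ZT2, 210.4 and 75.5 at ZT10, and 102 and 154 at ZT14, a change of -4.10 ± 0.51. Coq10b, whose upstream E-box and D-box are shown above, lay between 3.89 and 8.38 CPM at dawn and between 32.0 and 53.3 at dusk (-2.85 ± 0.34). Por, the reductase that passes electrons to cytochromes P450, lay between 117 and 174 CPM at dawn and between 424 and 668 at dusk (-1.87 ± 0.25). In none of these did the windows overlap. Gys2, the glycogen synthase of liver, lay between 51.1 and 75.3 CPM at dawn and between 142 and 283 at dusk (-1.72 ± 0.26). The largest adjusted p among these 4 was 0.000613 (Gys2) by edgeR (quasi-likelihood test, Benjamini-Hochberg). The other called members were Tsc22d3, Cyp2a5, Alas1 and Wee1 at dusk and Leo1 at dawn. Wee1, a kinase that holds back mitosis (-2.18 ± 0.47), and Leo1, a subunit of the PAF1 complex of transcription (1.23 ± 0.29), fall outside the naming rule and were named after their values were seen.

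Beyond the clock, the genes of largest change at dawn, among those whose geometric mean reached 10 CPM, were of mixed function. A1bg, a plasma glycoprotein, read 76.6 and 45.4 CPM at ZT22, 17.2 and 69.8 at ZT2, 5.94 and 4.04 at ZT10, and 2.11 and 4.52 at ZT14, a change of 3.66 ± 0.59. In the 12 AL libraries A1bg lay between 0.0533 and 0.703 CPM, so that its difference of 1.76 ± 1.01 there rests on very low levels. Slc41a2, a magnesium transporter, lay between 26.2 and 51.5 CPM at dawn and between 2.70 and 12.3 at dusk (3.02 ± 0.40). Tubb2a, a β-tubulin, read 344 and 232 CPM at ZT22, 174 and 90.3 at ZT2, 21.3 and 11.1 at ZT10, and 56.2 and 37.5 at ZT14 (2.82 ± 0.34). Slc30a10, which exports manganese from hepatocytes, lay between 19.0 and 40.7 CPM at dawn and between 3.61 and 6.71 at dusk, and had the smallest p of all genes (2.53 ± 0.24, adjusted p = 9.35e-06 by edgeR (quasi-likelihood test, Benjamini-Hochberg)). In all 4 genes each dawn library was above each dusk library.

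Chka, the choline kinase of phosphatidylcholine synthesis (2.51 ± 0.34), Clpx, the unfoldase of a mitochondrial protease (2.36 ± 0.37), and the tight junction protein Cldn1 (2.08 ± 0.21) followed at dawn, also without overlap. Clpx lay between 133 and 273 CPM at dawn and between 15.2 and 69.3 at dusk, with CR ZT22 1 the lowest of the dawn libraries. The remaining 3 were the ubiquitin ligase Rnf125 (2.25 ± 0.36), Paqr9 of the progestin and adipoQ receptor family (2.12 ± 0.30) and the murinoglobulin pseudogene Mug-ps1 (1.97 ± 0.48). Rnf125 overlapped through CR ZT22 1, at 37.5 CPM against 40.5 in CR ZT10 1. Reads of Mug-ps1 may come from its paralogs, and its call held without CR ZT10 2 or CR ZT22 2 but not without any of the other 6 libraries (adjusted p up to 0.136 by edgeR (quasi-likelihood test, Benjamini-Hochberg)).

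Several other genes of largest change at dusk act in lipid, nucleotide and haem metabolism. Lpin1, a phosphatidate phosphatase and coactivator of fat oxidation genes, read 48.5 and 35.7 CPM at ZT22, 31.5 and 31.6 at ZT2, 308 and 255 at ZT10, and 369 and 749 at ZT14. Each dusk library was above each dawn library, with a change of -3.44 ± 0.48. Rgs16, a brake on G protein signals, lay between 3.32 and 16.3 CPM at dawn and between 26.7 and 119 at dusk (-3.20 ± 0.58). Upp2, the uridine phosphorylase of liver, read 25.4 and 36.1 CPM at ZT22, 53.0 and 52.1 at ZT2, 526 and 405 at ZT10, and 146 and 246 at ZT14 (-2.91 ± 0.39). Angptl4, a secreted inhibitor of lipoprotein lipase, lay between 9.49 and 13.8 CPM at dawn and between 57.5 and 130.3 at dusk (-2.87 ± 0.49). Errfi1, an inhibitor of the EGF receptor (-2.61 ± 0.35), also had windows that did not overlap. The largest adjusted p among these 5 genes was 0.00278 (Rgs16) by edgeR (quasi-likelihood test, Benjamini-Hochberg), and all 5 were called with any 1 of the 8 libraries left out. Alas1, the rate-limiting enzyme of haem synthesis, lay between 37.5 and 89.0 CPM at dawn and between 288 and 544 at dusk (-2.50 ± 0.57, adjusted p = 0.0164 by the same edgeR test). Its call was lost without CR ZT2 1, CR ZT2 2, CR ZT14 2, CR ZT22 1 or CR ZT22 2, with adjusted p up to 0.103.

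Genes of glucose production were called at dusk only. Of 13 tested, 5 were higher at dusk and 0 at dawn, against 1.42% and 1.28% of all tested genes. The median of the 13 was -0.68, and all 5 were called with any 1 of the 8 libraries left out. Pck1, the rate-limiting enzyme of gluconeogenesis, read 268 and 473 CPM at ZT22, 363 and 138 at ZT2, 1791 and 2621 at ZT10, and 2245 and 2257 at ZT14, a change of -2.87 ± 0.43. Sds, which turns serine into pyruvate, lay between 10.7 and 18.0 CPM at dawn and between 36.1 and 111 at dusk (-2.17 ± 0.34). Tat, tyrosine aminotransferase, read 352 and 259 CPM at ZT22, 194 and 192 at ZT2, 468 and 745 at ZT10, and 1076 and 1387 at ZT14 (-1.83 ± 0.30). ZT14 was the highest time point of Tat, while Pck1 had like levels at both dusk time points. The transaminase Got1 lay between 54.9 and 129 CPM at dawn and between 254 and 544 at dusk (-1.94 ± 0.32). Foxo1, the insulin-restrained transcription factor of this pathway, lay between 25.2 and 43.1 CPM at dawn and between 55.4 and 111 at dusk (-1.21 ± 0.23). Their adjusted p-values were at most 0.00456 (Foxo1) by edgeR (quasi-likelihood test, Benjamini-Hochberg), and in none of the 5 did the windows overlap. Sds overlaps Plbd2 in the annotation. Sds, Tat and Got1 were also the 3 called genes among 35 of amino acid catabolism, and of 8 urea cycle genes 0 were called.

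Genes of insulin signal and glycogen were called in both directions, with 5 of 18 higher at dusk and 1 at dawn and a median of -0.29. Among all tested genes 1.42% were higher at dusk and 1.28% at dawn. Ppp1r3g, a subunit that directs protein phosphatase to glycogen, read 0.362 and 0.873 CPM at ZT22, 2.54 and 1.30 at ZT2, 13.2 and 17.2 at ZT10, and 62.1 and 106 at ZT14. Its change of -5.09 ± 0.50 was called with any 1 of the 8 libraries left out (adjusted p = 1.02e-05 by edgeR (quasi-likelihood test, Benjamini-Hochberg)). Trib1, a pseudokinase linked to plasma lipids, lay between 5.00 and 12.1 CPM at dawn and between 26.5 and 30.7 at dusk (-1.96 ± 0.24). Gys2 and Foxo1, given above, and the transcription factor Foxo3 (-1.17 ± 0.26) were the others at dusk. Ppp1r3c, another glycogen-targeting subunit, was the member higher at dawn. It read 37.0 and 29.4 CPM at ZT22, 11.7 and 20.7 at ZT2, 7.62 and 4.87 at ZT10, and 6.70 and 7.63 at ZT14 (1.79 ± 0.37). Foxo3 and Ppp1r3c fall outside the naming rule and were named after their values were seen.

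Of 18 glucocorticoid-responsive genes, 6 were higher at dusk, against 1.42% of all tested genes, and 0 at dawn, with a median of -1.05. They were Errfi1, Pck1, Tsc22d3, Per1, Tat and, outside the naming rule and named after its value was seen, the receptor co-chaperone Fkbp5 (-1.20 ± 0.29). Tsc22d3, the leucine zipper protein GILZ, lay between 14.1 and 29.2 CPM at dawn and between 50.8 and 109 at dusk (-1.77 ± 0.28, adjusted p = 0.000877 by edgeR (quasi-likelihood test, Benjamini-Hochberg)). Of 7 Krüppel-like factors, 3 were higher at dusk and 0 at dawn, against 1.42% and 1.28% of all tested genes. Klf13 lay between 15.4 and 27.5 CPM at dawn and between 51.5 and 89.3 at dusk (-1.73 ± 0.30). Klf15, a regulator of amino acid use in fasting, was at -0.94 ± 0.23 and Klf10 at -1.79 ± 0.46. The call of Klf15 was lost without CR ZT2 2, CR ZT10 1, CR ZT14 1, CR ZT22 1 or CR ZT22 2, and that of Klf10 without any library but CR ZT10 2, with adjusted p up to 0.14 and 0.163 by the same edgeR test.

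Few genes of lipid synthesis were called. Of 21 genes of fatty acid synthesis 1 was higher at dawn, and of 25 of cholesterol synthesis 1, with a median of 0.36 in both lists. Over all tested genes 1.28% were higher at dawn, so 1 call says little of a list of this size. Elovl5, a fatty acid elongase, read 205 and 168 CPM at ZT22, 193 and 254 at ZT2, 207 and 167 at ZT10, and 56.4 and 57.0 at ZT14 (0.99 ± 0.25). Hmgcs1, the synthase at the start of the mevalonate pathway, read 595 and 499.6 CPM at ZT22, 833 and 958 at ZT2, 809.7 and 265 at ZT10, and 98.8 and 107 at ZT14 (1.57 ± 0.41). ZT14 was the low time point in both, and ZT10 overlapped dawn. Their adjusted p-values of 0.035 and 0.0414 by edgeR (quasi-likelihood test, Benjamini-Hochberg) rose to at most 0.133 and 0.144 when 1 library was left out. The call of Elovl5 was kept only without CR ZT10 1 or CR ZT10 2, and that of Hmgcs1 only without CR ZT10 1.

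The 34 genes of fat oxidation had a median of -0.28. Of them, 2 were higher at dusk and 1 at dawn, against 1.42% and 1.28% of all tested genes. These were Angptl4, given above, and the mitochondrial carnitine palmitoyltransferase Cpt1a at dusk, and at dawn Pdk4, whose kinase curbs the use of glucose. Cpt1a lay between 60.2 and 68.1 CPM at dawn and between 86.5 and 331 at dusk (-1.19 ± 0.31, adjusted p = 0.0395 by edgeR (quasi-likelihood test, Benjamini-Hochberg)), and its call was kept only without CR ZT10 1. Pdk4 read 14.3 and 27.4 CPM at ZT22, 19.5 and 12.4 at ZT2, 2.54 and 4.37 at ZT10, and 17.9 and 10.1 at ZT14, so that ZT10 alone was low (1.39 ± 0.30, adjusted p = 0.0102). Its call was lost without CR ZT22 2, CR ZT2 1, CR ZT10 1 or CR ZT14 2, with adjusted p up to 0.0855 by the same edgeR test.

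Of 32 drug metabolism genes, 4 were higher at dusk, against 1.42% of all tested genes, and 0 at dawn, with a median of -0.43. Besides Por and Alas1 these were Cyp2a5 and Cyp1a2. Cyp2a5, a coumarin hydroxylase, read 639 and 689.7 CPM at ZT22, 536 and 344 at ZT2, 3666 and 1784 at ZT10, and 2595 and 2766 at ZT14 (-2.32 ± 0.47, adjusted p = 0.00632 by edgeR (quasi-likelihood test, Benjamini-Hochberg), and 0.0549 without CR ZT2 2). Its near-identical paralog Cyp2a4 makes the split of reads between them uncertain. Cyp1a2, a caffeine oxidase, lay between 87.3 and 129.6 CPM at dawn and between 191 and 352 at dusk (-1.17 ± 0.28, adjusted p = 0.022 by the same edgeR test), with its call kept only without CR ZT10 2 or CR ZT14 1.

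**Figure D3:**
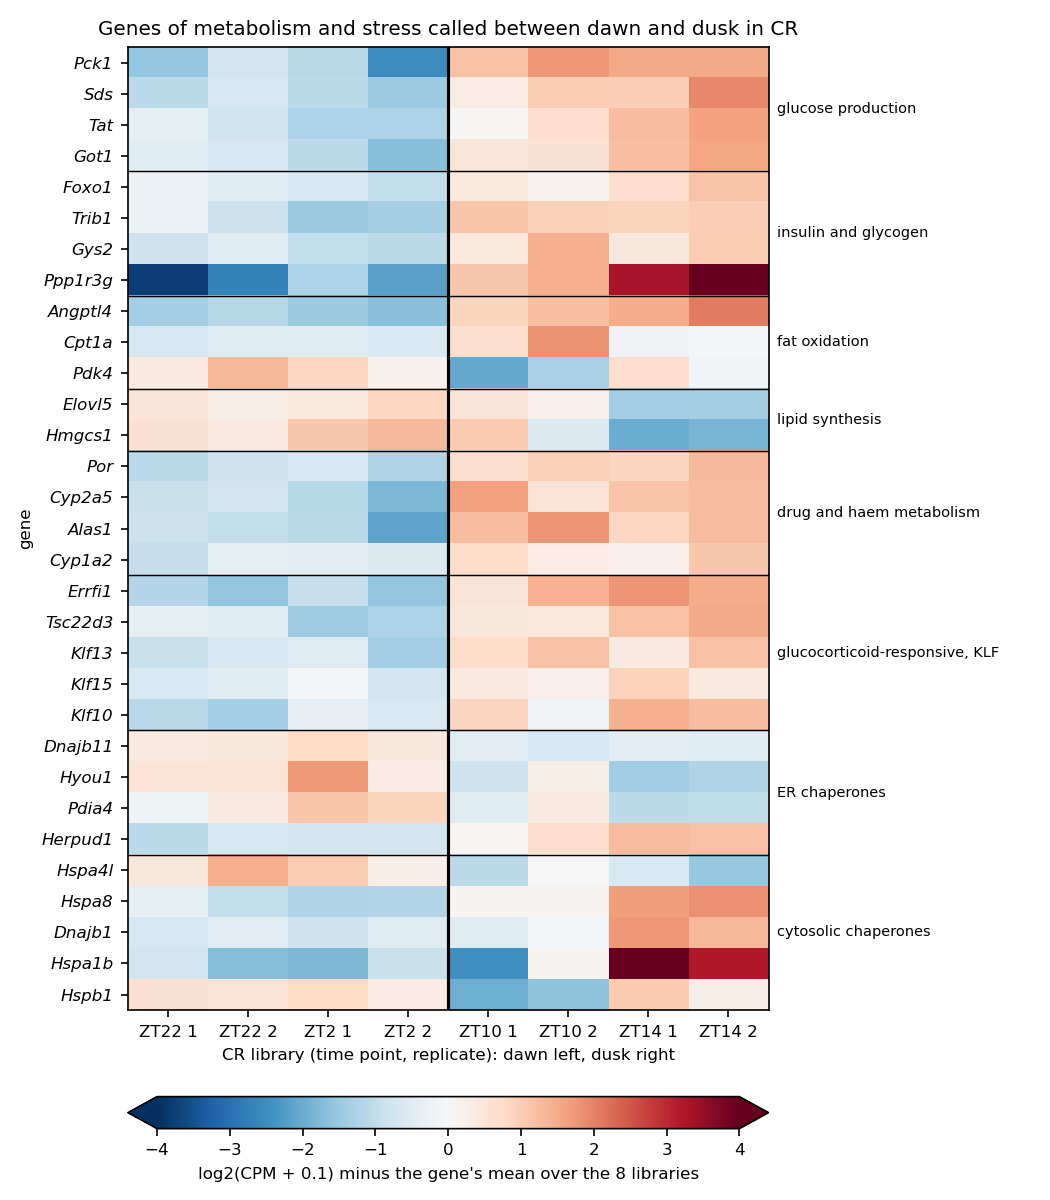
Colour gives log2(CPM + 0.1) minus the gene's mean over the 8 CR libraries (columns, dawn left of the line and dusk right) for 31 called genes of metabolism and stress, grouped by role. Pck1 and Ppp1r3g are low in the 4 dawn libraries and high in the 4 dusk libraries, while Elovl5 and Hmgcs1 are lowest at ZT14 and Pdk4 and Hspb1 at ZT10.

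The unfolded protein response was covered by 23 genes, of which 4 were higher at dawn and 1 at dusk, with a median of 0.38 and 20 values above zero. Of all tested genes, 1.28% were higher at dawn and 1.42% at dusk. Dnajb11, a co-chaperone of the endoplasmic reticulum, read 90.9 and 97.4 CPM at ZT22, 122 and 96.7 at ZT2, 51.7 and 44.8 at ZT10, and 52.4 and 49.2 at ZT14. The windows did not overlap and the change was 1.03 ± 0.22. Hyou1, a large chaperone, was at 1.63 ± 0.36 and Pdia4, a disulfide isomerase, at 1.09 ± 0.26. Manf, a secreted protein of this response, was at 1.28 ± 0.34, outside the naming rule and named after its value was seen. Adjusted p-values were 0.00954, 0.0127, 0.0255 and 0.0435 by edgeR (quasi-likelihood test, Benjamini-Hochberg). The number of members called at dawn ranged from 0, without CR ZT2 1 or without CR ZT14 2, to 4 when 1 library was left out, and was 1 without CR ZT14 1 or without a composition factor, with 1 at dusk each time. Herpud1, which aids the breakdown of misfolded proteins, went the other way. It lay between 73.6 and 99.5 CPM at dawn and between 165 and 376 at dusk (-1.63 ± 0.28) and was called with any 1 of the 8 libraries left out.

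Of 18 cytosolic chaperones, 3 were higher at dusk and 2 at dawn, against 1.42% and 1.28% of all tested genes. Hspa8, the constitutive HSP70, read 251 and 166 CPM at ZT22, 142 and 143 at ZT2, 349 and 348 at ZT10, and 1030.2 and 1162 at ZT14 (-1.84 ± 0.34). Dnajb1, its co-chaperone, read 6.17 and 7.33 CPM at ZT22, 5.64 and 6.93 at ZT2, 7.09 and 9.50 at ZT10, and 33.4 and 25.0 at ZT14 (-1.25 ± 0.24). ZT14 was the high time point of both. Hspa1b, an inducible HSP70, read under 1 CPM in the dawn and ZT10 libraries and 17.3 and 8.23 CPM at ZT14 (-2.83 ± 0.64). Its near-identical copy Hspa1a makes the split of reads uncertain, and its call was lost without CR ZT22 2, CR ZT2 1, CR ZT2 2, CR ZT10 2 or CR ZT14 1. Hspb1, a small heat shock protein, read 34.7 and 34.5 CPM at ZT22, 39.6 and 28.6 at ZT2, 5.86 and 7.37 at ZT10, and 47.6 and 26.7 at ZT14 (1.13 ± 0.26), so that only ZT10 was low. Its call was lost without CR ZT22 1, CR ZT2 1, CR ZT10 1 or CR ZT14 2. Hspa4l, of the HSP110 family, lay between 14.3 and 32.2 CPM at dawn and between 4.06 and 11.7 at dusk (1.60 ± 0.30). Adjusted p-values of these 5 lay between 0.00279 (Hspa8) and 0.0178 (Hspb1) by edgeR (quasi-likelihood test, Benjamini-Hochberg).

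Single members of other lists were called at dusk. At this threshold 1.42% of all tested genes were higher at dusk, so a single call says little of its list. Ulk1, the kinase that starts autophagy, was 1 of 25 autophagy genes (-1.45 ± 0.29). Cebpb, a transcription factor of the liver's stress responses, was 1 of 17 ATF4 targets (-1.83 ± 0.31). Hamp, the iron hormone hepcidin, was 1 of 24 acute phase genes. It read 599 and 342 CPM at ZT22, 66.3 and 611 at ZT2, 1531 and 1082 at ZT10, and 1526 and 2493 at ZT14 (-2.02 ± 0.46, adjusted p = 0.0159 by edgeR (quasi-likelihood test, Benjamini-Hochberg)), and its call was lost without CR ZT14 2 or CR ZT22 2. No gene was called, in either direction, among 16 of bile acids, 16 of the growth hormone axis, 3 cold-inducible RNA-binding proteins, 23 of cell division, 31 proteasome subunits, 76 mitochondrial ribosomal proteins, 75 nuclear and 11 mitochondrial genes of the respiratory chain and 18 other genes of translation. Of 82 cytosolic ribosomal proteins 0 were called, with a median of -0.55 and 2 values above zero. Their median was -0.8 without CR ZT10 2 and -0.07 without CR ZT10 1, where the medians over all tested genes were 0.05 and 0.015. Without CR ZT10 2 the median was -0.725 for the 75 nuclear respiratory chain genes. It was -0.356 for the 76 mitochondrial ribosomal proteins and -0.373 for the 18 other genes of translation. Except for the cold-inducible proteins, each of these lists held calls in at least 1 fit with 1 library left out.

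Of the lists of other cell types, only that of neutrophils held calls. S100a8, a calprotectin subunit, lay between 7.61 and 16.9 CPM at dawn and between 1.09 and 2.18 at dusk (2.82 ± 0.57). S100a9, its partner, lay between 8.97 and 17.0 CPM at dawn and between 0.630 and 2.43 at dusk (3.20 ± 0.56). Adjusted p-values were 0.00646 and 0.00187 by edgeR (quasi-likelihood test, Benjamini-Hochberg), and that of S100a8 was 0.0574 without CR ZT14 2. The summed level of the 9 neutrophil markers, of which 6 were tested, was 19.9 to 35.8 CPM at dawn and 2.31 to 5.19 CPM at dusk. Ly6g was at 0. S100a8 and S100a9 made up most of this sum in each library, so it is no separate result. In these bulk samples more cells of a type and more RNA per cell cannot be told apart. Markers of Kupffer cells, endothelial cells, stellate cells, lymphocytes, red blood cells, bile duct cells, pancreatic acinar cells and adipocytes held 0 calls, as did those of hepatocytes. Of all tested genes 1.28% were higher at dawn and 1.42% at dusk, so 0 calls say little of lists this short. Lymphocyte markers summed to 8.39 to 18.1 CPM at dawn and 6.13 to 7.65 CPM at dusk. The part of such cells in the other results was not tested.

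The same difference was then taken in AL. There 265 genes (1.71%) were called between dawn and dusk. The AL libraries also differed in quality. Ribosomal RNA features took 61.3% and 62.2% of counted reads at ZT22 and 26.3% and 21.9% at ZT2. They took 7.65% and 16.5% at ZT10 and 35.4% and 59.0% at ZT14. The summed neutrophil markers read 117 CPM in AL ZT22 2C and 5.24 in AL ZT22 2d. Both diets called 95 genes with the same sign and 0 with opposite signs, which is 22.7% of the CR calls and 35.8% of the AL calls. Of the 418 CR calls, 391 (93.5%) had the same sign in AL. The share of all tested genes with the same sign in both diets was not taken, so the 93.5% has no background to be set against. The difference between the diets itself was called for 0 genes (0%) by edgeR (quasi-likelihood test, Benjamini-Hochberg), with 845 genes at an unadjusted p under 0.05, 19 called by DESeq2 and 69 by edgeR without the filter on low counts. The smallest adjusted p, 0.138, belonged to Pdk4, whose change was 1.39 ± 0.30 in CR and 3.76 ± 0.34 in AL, a difference of -2.37 ± 0.43. In AL, Pdk4 stood at a mean of 0.837 CPM at ZT10 and 1.56 at ZT14, while in CR it read 17.9 and 10.1 CPM at ZT14.

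The next genes by p of this difference were not called either. Trib1 had -1.96 ± 0.24 in CR and -0.29 ± 0.23 in AL, a difference of -1.67 ± 0.33. Hspb1 had 1.13 ± 0.26 in CR and -0.70 ± 0.26 in AL, and Dnajb11 had 1.03 ± 0.22 and -0.28 ± 0.22. Nipal1, of a magnesium transporter family, had -0.22 ± 0.36 in CR and 2.95 ± 0.52 in AL. Cdip1, a mediator of p53-dependent cell death, had -1.65 ± 0.22 and -0.22 ± 0.22, and the interferon regulatory factor Irf2 -0.97 ± 0.19 and 0.21 ± 0.19. Slc41a2 had 3.02 ± 0.40 and 0.75 ± 0.37. Adjusted p-values of these 7 differences were 0.19 to 0.333 by edgeR (quasi-likelihood test, Benjamini-Hochberg). Among clock genes the CR minus AL difference was 0.38 ± 0.65 for Arntl, 0.57 ± 0.79 for Dbp, -0.31 ± 0.66 for Per1 and -1.78 ± 0.65 for Ciart, none of them called. Values of this size with these errors do not show that the diets act alike.

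Inside dawn, 1 gene, Nr1d1 (0.00646% of those tested), differed between ZT2 and ZT22, with 680 genes at an unadjusted p under 0.05 and 2 called by DESeq2. With 1 of the 4 dawn libraries left out, 0 genes were called. The next genes by p, with values for ZT2 minus ZT22, were Nr1d2 at 1.81, Cyp7a1, the rate-limiting enzyme of bile acid synthesis, at 1.52, Baz1a, a chromatin remodelling subunit, at -1.56, the splicing factor Luc7l3 at -2.05 and the secreted protein Tsku at -2.30. All had an adjusted p of 0.949 by edgeR (quasi-likelihood test, Benjamini-Hochberg). Cyp7a1 read 16.1 and 34.3 CPM at ZT22, 50.1 and 93.9 at ZT2, 110.3 and 76.9 at ZT10, and 56.6 and 47.3 at ZT14.

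Inside dusk, 346 genes (2.23%) were higher at ZT14 and 221 (1.43%) higher at ZT10 by edgeR (quasi-likelihood test, Benjamini-Hochberg). These 567 calls became 2133 without CR ZT10 1, 98 without CR ZT10 2, 1 without CR ZT14 1, 115 without CR ZT14 2 and 0 when only the 8 CR libraries were fitted (1431 by DESeq2). The median over all tested genes was -0.12 (ZT14 minus ZT10), or -0.37 without a composition factor, where 11 genes were higher at ZT14 and 50 at ZT10. Of 82 cytosolic ribosomal proteins, 29 were higher at ZT14 and 81 values were positive, with a median of 1.36. The respiratory chain, with 75 nuclear genes, had 21 higher at ZT14, and the 76 mitochondrial ribosomal proteins had 11, with medians of 1.10 and 0.93. Without CR ZT14 1, or without a composition factor, 0 members of these 3 lists were called. The numbers of members called fell without CR ZT10 2 and rose without CR ZT10 1, as did the calls over all tested genes. The medians of the 3 lists, in the same order, were 0.825, 0.774 and 0.597 without CR ZT10 2. Without CR ZT10 1 they were 2.256, 1.749 and 1.393. Over all tested genes the medians were 0.044 and -0.032 in these fits. The list medians stayed positive in each of these settings. Relative to the mean of the 8 libraries, the median level of the ribosomal proteins was 0.17 log2 units in CR ZT10 1 but -1.26 in CR ZT10 2, and 1.30 and 0.70 at ZT14. Genes higher at ZT14 had a median exon length of 2070.5 bases and those higher at ZT10 one of 6966, against 3921 over all tested genes. The part of exon length in this result was not tested.

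Among single genes inside dusk, Nfil3, given above, had the smallest p. Pgp, a phosphoglycolate phosphatase, read 22.4 and 22.8 CPM at ZT22, 20.8 and 18.2 at ZT2, 15.2 and 13.2 at ZT10, and 55.0 and 54.1 at ZT14. Saysd1 read 25.3 and 23.3 CPM at ZT22, 19.8 and 22.2 at ZT2, 12.8 and 11.1 at ZT10, and 42.3 and 37.2 at ZT14. The ribosomal protein Rpl10a read 85.1 and 65.5 CPM at ZT22, 58.5 and 63.6 at ZT2, 49.2 and 41.9 at ZT10, and 228 and 148 at ZT14. Dawn lay between the dusk time points in these 3 genes, whose mean change between dawn and dusk was not called. The ZT14 minus ZT10 differences of Pgp (1.94), Saysd1 (1.73), Rpl10a (2.04) and Hspb1 (2.49) had an adjusted p of 0.00505 each by edgeR (quasi-likelihood test, Benjamini-Hochberg).

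**Figure D4:**
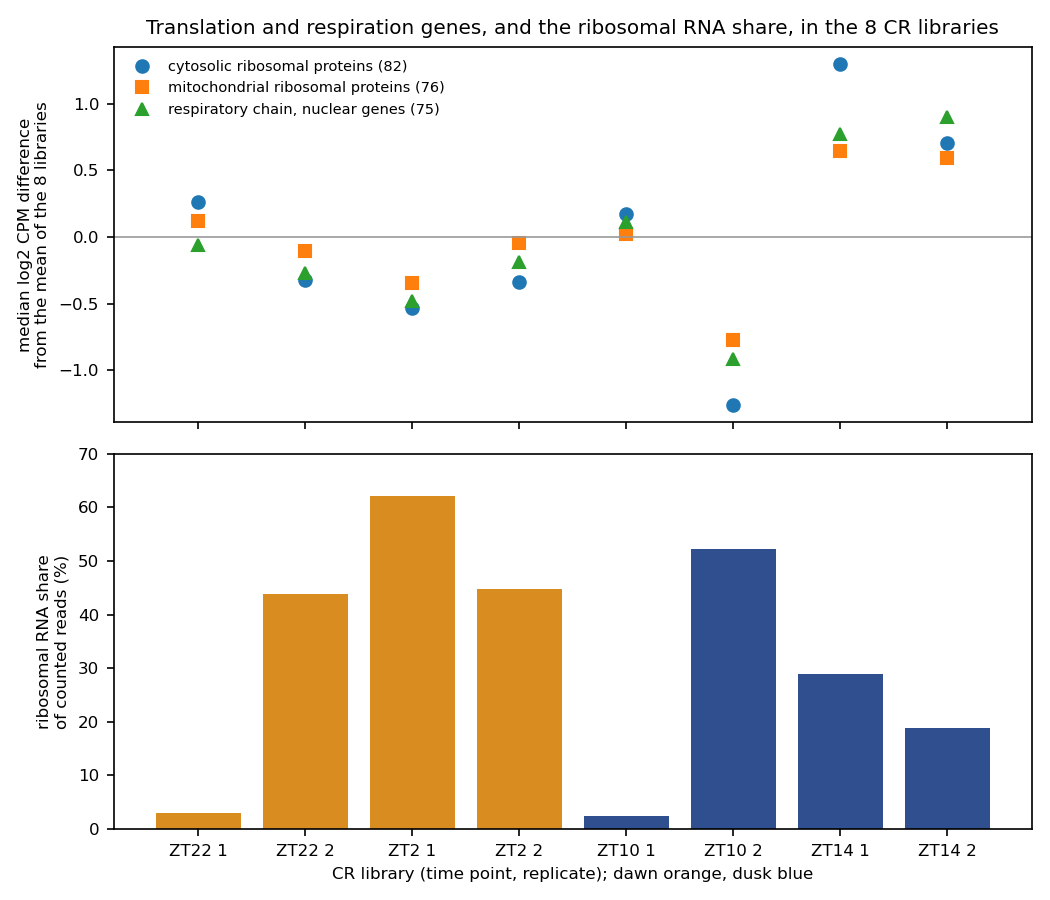
Top, median over the genes of a list of the log2 CPM difference from the mean of the 8 CR libraries, for 82 cytosolic ribosomal proteins, 76 mitochondrial ribosomal proteins and 75 nuclear genes of the respiratory chain. Bottom, bars give the share of counted reads in ribosomal RNA features (%). All 3 lists are lowest in CR ZT10 2 and highest in the libraries of ZT14.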

How the data were processed

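RNA bound to polysomes was sequenced, poly(A)-selected and without strand, in 24 mouse liver libraries, of which the 8 CR libraries of ZT 22, 2, 10 and 14 are compared here. Raw counts of reads, with 1 value per gene and library, are what the authors deposited. FastQC, HTSeq and DESeq2 are named, with the build GRCm38.p5, per the submitters' processing notes, and the aligner is not given in the sources used here. Counts were tested with edgeR 4.0.16 in R 4.3.3 (TMM factors, filterByExpr over the 12 groups of diet and time point, 1 mean per group, all 24 libraries, quasi-likelihood F test, Benjamini-Hochberg adjustment over 15490 genes, threshold 0.05). Windows were compared as the mean of their 2 time points. The SE is the log2 change divided by the square root of F. CPM uses the TMM-scaled library size. Counted reads per library were 18.6 to 51.0 M, of which 7.04 to 49.7 M lay outside 363 features that collect ribosomal RNA, and a CPM from a few counts is imprecise. On simulated counts for 14708 genes, 21 of 100 changes of 1 log2 unit and 86 of 100 of 2 units were recovered, with 5 false among 112 calls. The simulated counts varied independently from gene to gene, with no library set apart, so these rates may not hold for the real libraries.

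The text names the 10 genes of largest change in each direction (geometric mean of at least 10 CPM, same sign in all 4 differences of time points), all clock list members, from each list at most 4 called members by p, the 8 of smallest p between the diets and the 5 inside each window. The members and lists were chosen with earlier results of these data known. Alternatives covered scaling, filters, DESeq2 1.42.0, the libraries fitted, ribosomal RNA as a covariate, a 1.5-fold threshold, a replicate block and leaving out libraries. Replicate numbers were not used to pair libraries outside the replicate block. Where annotated genes overlap, as for Arntl, Npas2, Ciart, Per3, Dbp, Tef, Coq10b and Alas1, reads without strand cannot be assigned. Promoters came from RefSeq and matched 31 of 39 genes by symbol. Some genes that the naming rule covers are not reported here.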

Additional observations from a re-analysis of the deposited data

Results flagged for a closer look

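In 2 of 80 windows of 4 libraries, 1 library lay far from the other 3, where chance gives about 1 in 20. Clpx, called higher at dawn, had a log2 CPM of 7.057 in CR ZT22 1, while the dawn libraries reached up to 8.092. Rora, not called, had a log2 CPM of 5.556 in CR ZT2 2, while the dawn libraries reached up to 6.497.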

How the results depend on the processing

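None of the 66 named genes called between dawn and dusk changed direction under the alternatives run. Of those not called, Bhlhe41, Nr1d1, Rora and Tsku changed sign when 1 library was left out, and Nr1d1, Tsku and Saysd1 with each window as 1 mean. The 418 calls between dawn and dusk (198 at dawn, 220 at dusk) stayed within 1.5 times under DESeq2-type size factors (415), a stricter filter (497), ribosomal RNA features left out (426) or as a covariate (496). They became 196 (105 and 91) without a composition factor, 742 (342 and 400) without a low-count filter, 842 (390 and 452) with DESeq2, 219 (105 and 114) with only the 8 CR libraries, 115 (46 and 69) with each window as 1 mean, 135 (66 and 69) for changes beyond 1.5-fold, and 181 (96 and 85) without both libraries of low ribosomal RNA share, which was chosen after seeing the data. With 1 library left out, calls ranged from 176 to 1466 (87 to 717 at dawn, 85 to 749 at dusk). Calls between the diets (0) became 69 without the filter and 19 with DESeq2, and 0 to 2 with 1 library left out. Calls inside dawn (1) became 0 without a composition factor, with only the 8 CR libraries and without both low ribosomal RNA libraries, 46 without the filter, 2 with DESeq2, and 0 to 0 with 1 library left out. Calls inside dusk (567) became 61, 1143, 1431 and 0 without a composition factor, without the filter, with DESeq2 and with only the 8 CR libraries, 1318 with the ribosomal RNA covariate, 2163 without both low ribosomal RNA libraries, and 1 to 2133 with 1 library left out. Of 81 named genes, 15 lost their call without a composition factor, 16 with only the 8 CR libraries, 29 with window means, and 17 without both low ribosomal RNA libraries; 44 of the 66 called kept it whichever library was left out. Causes were not tested. A replicate block gave 417 calls and 520 inside dusk and changed no named call. Differences between replicates 1 and 2 correlated at 0.514 between ZT22 and ZT10, and from -0.129 to -0.0372 in the other pairs of groups. Replicate 1 of both ZT22 and ZT10 is a library of low ribosomal RNA share. Whether these libraries were prepared together is not given and was not tested. Genes of few counts are imprecise, and changes of 1 log2 unit were mostly missed in simulation.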

Other observations

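Genes switched on by interferon, which code for proteins that block viruses, formed a group not described above, and the list was chosen after values had been seen. Of 47 such genes, 9 were higher at dawn in CR and 0 at dusk, where 1.28% and 1.42% of all tested genes were, with 38 values above zero and a median of 0.80. Rsad2, the antiviral protein viperin, read 13.0 and 27.5 CPM at ZT22, 11.6 and 9.56 at ZT2, 3.29 and 2.46 at ZT10, and 2.83 and 4.41 at ZT14 (2.17 ± 0.34). Cmpk2, a mitochondrial nucleotide kinase, lay between 3.97 and 6.84 CPM at dawn and between 0.412 and 1.05 at dusk (2.94 ± 0.38), and the oligoadenylate synthetase-like gene Oasl1 lay between 3.81 and 10.0 CPM at dawn and between 0.390 and 1.73 at dusk (2.59 ± 0.44). In these 3 genes each dawn library was above each dusk library, and adjusted p-values were at most 0.00163 by edgeR (quasi-likelihood test, Benjamini-Hochberg). Ifi47 (1.59 ± 0.32), Dhx58 (1.58 ± 0.34), Irgm2 (1.16 ± 0.26), Mx2 (2.06 ± 0.51), Gbp6 and Mx1, with 1 CR time point at 0 for Mx1, were the others. Between 5 and 12 of the 47 were called when 1 library was left out, and 3 of the 9 in all 8 such fits. In AL 2 were higher at dawn, with a median of 0.45, and no member's difference between the diets was called (smallest adjusted p 0.497 by the same edgeR test). Neutrophil markers, mostly S100a8 and S100a9, and lymphocyte markers were also higher in summed level at dawn, as given above. The part of these cells in this result was not tested.

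Further single genes were higher at dusk. They were picked because they were called, so they say nothing of a group. Pnpla2, the triglyceride lipase ATGL, lay between 27.8 and 31.5 CPM at dawn and between 59.9 and 113 at dusk (-1.39 ± 0.22). Lpin2, a phosphatidate phosphatase related to Lpin1, lay between 74.7 and 130.4 CPM at dawn and between 206 and 471 at dusk (-1.43 ± 0.30). The lysophospholipid carrier Mfsd2a was at -2.24 ± 0.55, and the sterol exporters Abcg5 and Abcg8 were at -1.19 ± 0.30 and -1.13 ± 0.28, with windows that overlapped through CR ZT14 1. Noct, a clock-linked phosphatase, lay between 0.635 and 2.79 CPM at dawn and between 6.24 and 33.7 at dusk (-3.71 ± 0.49), and the mitochondrial carrier Slc25a25 read 22.1 and 16.5 CPM at ZT22, 10.5 and 3.73 at ZT2, 27.5 and 25.4 at ZT10, and 157 and 136 at ZT14 (-2.42 ± 0.36). Txnip, an inhibitor of glucose uptake, lay between 14.4 and 24.9 CPM at dawn and between 35.1 and 66.9 at dusk, with a change of -1.50 ± 0.25 in CR and -0.08 ± 0.25 in AL, and the difference between the diets was not called (adjusted p = 0.437 by edgeR's quasi-likelihood test).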
